A study of Mus musculus with 8 samples.

Results

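Type I interferon-stimulated genes were followed in spleen cells of lupus-prone mice with both copies or only 1 functional copy of E2-2. The group was a list of 39 genes chosen by name, among them the Ifit, Oas and Mx families, the transcription factors Irf7, Irf9 and Stat2, and enzymes that attach or remove the ubiquitin-like protein ISG15. Of these, 37 had a probe set assigned to that gene alone, out of 19938 such genes on the array, and 35 were bright enough to enter the test, out of 14953 genes tested. RNA of splenocytes, freed from each spleen with collagenase and DNase, was hybridised to 1 Affymetrix Mouse Gene 1.0 ST array for every mouse. All mice were on the C57/B6 strain background. The groups were wild-type mice (WT, n = 2), mice labelled Sle1.3 and described as lupus mice (n = 3), and mice with the Sle1.3 background that are haplodeficient for E2-2 (labelled Sle1.3/E2-2het, n = 3, called haplodeficient mice from here on). The labels give no age, litter or disease stage. The product of Tcf4, E2-2, is a transcription factor on which plasmacytoid dendritic cells depend, and the series title describes those cells as non-functional in the haplodeficient animals.

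Type I interferons are secreted cytokines that bind a receptor made of IFNAR1 and IFNAR2. The kinases JAK1 and TYK2 then activate STAT2, which acts with IRF9 in the ISGF3 complex to switch on a broad set of genes through the interferon-stimulated response element. Plasmacytoid dendritic cells are a potent source of interferon alpha, which they make through endosomal Toll-like receptors and IRF7. Raised interferon-stimulated transcripts in blood cells are a well-known feature of human lupus.

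The promoters of the members are the place where this signal is read, so stretches that hold the letters of that element are shown for called members. The element was searched as GAAA, any 2 bases and GAAA again, on both strands (read on the other strand as TTTC, any 2 bases and TTTC), in RefSeq windows (GRCm38.p6) from 250 bases before to 50 bases after a gene's start. Windows were listed for 30 of the 39 members, and 14 of those 30 genes (46.67%) held a match, against 1079 of 27025 genes with a window (3.99%). Of the 14 members past the test in any comparison, 12 had a window and 7 of them held a match. The 250 bases before the start are printed for the 6 of these 7 whose match lay there, 5′ to 3′ in the gene's direction, with the matched bases in capitals. The windows were chr5:120907526-120907775 (minus strand) for Oas1a, chr19:34640639-34640888 (plus strand) for Ifit1, chr19:34583279-34583528 (plus strand) for Ifit3, chr12:26456453-26456702 (minus strand) for Rsad2, chr5:92348890-92349139 (minus strand) for Cxcl10 and chr10:128270248-128270497 (plus strand) for Stat2.
Oas1a: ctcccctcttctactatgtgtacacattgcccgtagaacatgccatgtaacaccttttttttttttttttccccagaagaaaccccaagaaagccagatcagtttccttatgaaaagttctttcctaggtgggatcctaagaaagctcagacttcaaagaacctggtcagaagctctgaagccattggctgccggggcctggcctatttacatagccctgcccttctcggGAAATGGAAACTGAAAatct
Ifit1: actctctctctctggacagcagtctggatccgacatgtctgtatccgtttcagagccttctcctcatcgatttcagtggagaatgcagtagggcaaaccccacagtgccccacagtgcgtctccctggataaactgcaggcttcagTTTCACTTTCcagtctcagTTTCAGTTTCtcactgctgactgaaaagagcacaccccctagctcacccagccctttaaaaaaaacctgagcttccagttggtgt
Ifit3: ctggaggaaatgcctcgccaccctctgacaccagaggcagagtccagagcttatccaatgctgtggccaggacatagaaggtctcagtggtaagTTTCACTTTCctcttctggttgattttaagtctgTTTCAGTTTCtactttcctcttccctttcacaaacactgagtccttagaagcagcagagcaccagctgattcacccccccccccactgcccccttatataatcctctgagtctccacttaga
Rsad2: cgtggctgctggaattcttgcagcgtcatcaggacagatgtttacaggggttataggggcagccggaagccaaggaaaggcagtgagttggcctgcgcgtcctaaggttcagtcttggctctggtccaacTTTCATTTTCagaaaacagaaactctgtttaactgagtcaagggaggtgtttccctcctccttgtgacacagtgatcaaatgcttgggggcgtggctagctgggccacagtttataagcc
Cxcl10: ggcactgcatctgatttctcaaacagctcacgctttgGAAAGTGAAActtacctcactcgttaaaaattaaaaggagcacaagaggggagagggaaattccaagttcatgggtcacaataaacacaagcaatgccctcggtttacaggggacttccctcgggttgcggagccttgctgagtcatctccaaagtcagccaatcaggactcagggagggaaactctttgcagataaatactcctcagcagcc
Stat2: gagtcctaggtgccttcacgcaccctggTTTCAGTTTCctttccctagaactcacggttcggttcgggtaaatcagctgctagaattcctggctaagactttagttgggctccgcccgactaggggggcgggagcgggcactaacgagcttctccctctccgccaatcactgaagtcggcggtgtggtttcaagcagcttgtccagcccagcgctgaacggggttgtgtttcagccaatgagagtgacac
In Oas1a 2 overlapping matches began 20 and 14 bases before the start. In Ifit1 matches began 104 and 85 bases before the start, and in Ifit3 156 and 122 bases before it. The single matches of Rsad2, Cxcl10 and Stat2 began 120, 213 and 222 bases before the start. A match is a run of letters and not a site shown to be bound. Among tested members, the median log2 difference between Sle1.3 and WT was 0.29 with a match (13 genes). It was 0.20 for those with a window but no match (14 genes). Between haplodeficient and Sle1.3 mice these medians were -0.18 and -0.16, and between haplodeficient and WT mice 0.21 and 0.02.

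The arrays fell into 2 sets that the labels do not give. Both arrays labelled replicate 3 had a lowest linear intensity of 10.9 or 11.2, against 4.57 to 5.11 in the other 6, and a higher median over all probe sets (6.17 in log2 units, against 5.83 to 5.95). They are called the second array set, which holds no WT mouse, and the set was a term in every planned fit. Sle1.3 replicate 3 is labelled male, yet the female-specific Xist was at 11.90 and the Y-linked Kdm5d at 4.19. Xist was high in all 3 Sle1.3 arrays and low in both WT arrays, so genotype and sex cannot be told apart in that comparison. Haplodeficient replicates 1 and 2 are male and replicate 3 female, by label and by Xist. Tcf4 was at 9.02 and 8.80 in WT, at 8.67, 8.63 and 9.06 in Sle1.3 and at 8.18, 8.13 and 9.25 in haplodeficient mice. The haplodeficient mouse of the second set was thus not low, and whether the probe set lies in the deleted part is not given in the sources used here, so Tcf4 does not check the genotype. First-set values are therefore given beside most of the results with haplodeficient mice that are described gene by gene below.

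Marker genes of splenic cell types moved with genotype too. All 9 neutrophil markers were higher in Sle1.3 than in WT, with a summed linear intensity of 1454 to 2111 in WT, 6095 to 21901 in Sle1.3 and 7152 to 19824 in haplodeficient arrays. Of 7 tested plasmacytoid dendritic cell markers 3 were lower in Sle1.3 than in WT (Siglech, Ccr9 and Spib), and 0 differed between haplodeficient and Sle1.3. Summed over 8 measured genes they were at 2136 to 2631 in WT, 1144 to 1348 in Sle1.3 and 1027 to 1463 in haplodeficient. Spib was the brightest and weighed most in this sum (log2 10.86 and 10.41 in WT, 9.12, 9.11 and 9.03 in Sle1.3). The fall of the sum from WT was thus largely that of Spib, and the sum is not a count of these cells. Cox6a2, Pacsin1, Il3ra and Cd300c differed by -0.21 to -0.03 between Sle1.3 and WT without passing. Of 7 natural killer markers 4 were lower in Sle1.3 than in WT (sums of 1907 to 2206 and 979 to 1179). B cell markers summed to 11519 to 14097 in WT, 10028 to 11581 in Sle1.3 and 9041 to 13505 in haplodeficient arrays. Lower in Sle1.3 than in WT were 2 of 6 B cell and 0 of 5 T cell markers. Higher were 4 of 7 red pulp macrophage, 3 of 6 monocyte and 0 of 5 erythroid markers. Over all tested genes 16.5% were lower and 7.46% higher. No marker was listed at 0, and the table holds no background level. In whole spleen, fewer cells of a type and less RNA per cell cannot be told apart, and the part of cell makeup in the results below was not tested.

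Among the 35 tested members, the median member was higher in Sle1.3 replicates 1 and 3 than in either WT array, and so it was, by less, in haplodeficient replicates 1 and 3. Each gene was set against its mean in the WT arrays, on the log2 scale. The median member then stood at 0.31, 0.13 and 0.48 in Sle1.3 replicates 1, 2 and 3, while the median of all tested genes stood at -0.06, -0.06 and 0.19. In haplodeficient replicates 1, 2 and 3 the member median was 0.15, -0.0020 and 0.20, beside -0.09, -0.10 and 0.17 over all tested genes. The 2 WT arrays were themselves apart, at -0.14 and 0.14 for the members and at -0.0073 and 0.0073 over all tested genes. Sle1.3 replicate 2 thus did not lie above WT replicate 2 for the median member.

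**Figure D1:**
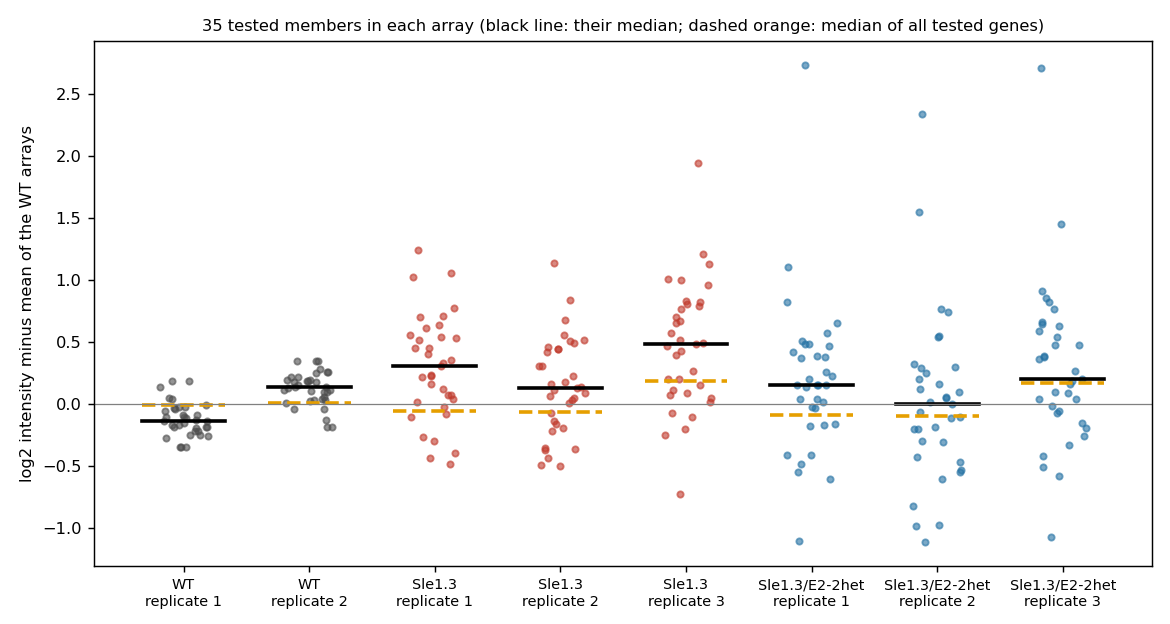
Log2 intensity of the 35 tested members in each of the 8 arrays, each gene set against its mean in the 2 WT arrays (1 point per gene, spread sideways for legibility), with the members' median in black and the median of all tested genes as a dashed line. The members' median is highest in Sle1.3 replicate 3, at 0.48, and close to 0 in Sle1.3/E2-2het replicate 2.

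The comparison of Sle1.3 with WT describes the lupus-prone mice themselves. In Sle1.3, 6 members were higher and 1 lower at an adjusted p under 0.05 in limma, and 28 did not pass. The 6 were Oas1a, Ifit1, Ifit3, Ifih1, Usp18 and Xaf1, and the lower gene was Cxcl10. That is 17.1% of members higher, against 7.46% of all tested genes, and 2.86% lower, against 16.5% (24.0% in either direction). At an unadjusted p under 0.05, 10 members were higher, against 12.6% of all tested genes, and 2 lower, against 25.4%. The median difference was 0.26 over the members and -0.06 over all tested genes, and 25 of 35 members lay above 0 (71.4%, against 44.0%). All 3 Sle1.3 arrays lay above both WT arrays for 15 members (42.9%, against 21.5% of all tested genes) and below both for 3 (8.57%, against 24.4%).

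Oas1a, an oligoadenylate synthetase that senses double-stranded RNA and activates RNase L, was the clearest of them. Its log2 intensity was 5.94 and 5.68 in WT, 6.58, 6.65 and 6.82 in Sle1.3, and 6.63, 6.58 and 6.67 in haplodeficient mice. All 6 Sle1.3 and haplodeficient arrays lay above both WT arrays. The difference between Sle1.3 and WT was 0.83 (SE 0.14, limma adjusted p = 0.00265), and it stayed past the threshold under each of 8 omissions of 1 array and in the first array set alone (adjusted p = 0.00859), though not with labelled sex in place of the array set. No other member called in this comparison stayed called under all 8 omissions. Among the other synthetases Oas2 (0.57, SE 0.20, adjusted p = 0.0520) passed with the replicate number as a block (adjusted p = 0.0357), and Oas3, Oasl1 and Oasl2 lay between -0.09 and 0.44 without passing. In comparisons with WT this block also sets each WT array beside the mice of its number, a pairing that the 2 WT arrays do not settle, so calls gained there with the block rest on it.

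Both tested Ifit genes were higher in Sle1.3. Ifit1 was at 5.83 and 5.90 in WT, 6.92, 6.31 and 6.33 in Sle1.3, and 6.25, 6.06 and 5.80 in haplodeficient mice. The Sle1.3 arrays were above the other groups without overlap, and the difference from WT was 0.76 (SE 0.18, adjusted p = 0.0117). Ifit3 was at 5.33 and 6.03 in WT, 6.70, 6.36 and 7.63 in Sle1.3, and 6.25, 6.42 and 7.13 in haplodeficient mice. Its highest 2 values were those of the second array set, and the difference between Sle1.3 and WT was 0.90 (SE 0.21, adjusted p = 0.0103). In the first array set the 2 genes differed by 0.75 and 0.85 (adjusted p = 0.0293 and 0.0276). Without WT replicate 1 or without Sle1.3 replicate 1 neither passed (Ifit3 differed by 0.55 without WT replicate 1), and Ifit1 was also lost without WT replicate 2.

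Of the 6 sensors of nucleic acids and their modulators, Ifih1 rose and the other 5 did not pass. Ifih1, which encodes the double-stranded RNA sensor MDA5, was at 6.05 and 6.43 in WT, 6.88, 6.65 and 7.07 in Sle1.3, and 6.60, 6.40 and 6.40 in haplodeficient mice. All Sle1.3 values lay above all others, with a difference from WT of 0.60 (SE 0.17, adjusted p = 0.0276). It did not pass in the first array set (adjusted p = 0.0671), nor without WT replicate 1, Sle1.3 replicate 1 or either array of the second set. The remaining 5 ranged from -0.25 for Dhx58, a modulator of RNA sensing, to 0.43 for Zbp1, a sensor of Z-form nucleic acids. Ddx58, which encodes RIG-I, differed by 0.10 (SE 0.16).

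Usp18, the protease that removes ISG15 from its targets and restrains receptor signalling, was at 6.62 and 6.96 in WT, 7.33, 7.31 and 7.75 in Sle1.3, and 6.95, 7.09 and 7.26 in haplodeficient mice. The Sle1.3 arrays again stood above both other groups, by 0.56 over WT (SE 0.15, adjusted p = 0.0203). It was lost without WT replicate 1, Sle1.3 replicate 1 or either array of the second set (first array set adjusted p = 0.0516). Xaf1, a partner of the apoptosis inhibitor XIAP, was at 6.03 and 6.26 in WT, 6.60, 6.71 and 6.57 in Sle1.3, and 6.29, 6.20 and 6.08 in haplodeficient mice. Its difference from WT was 0.52 (SE 0.14, adjusted p = 0.0198), and it was lost without WT replicate 1, Sle1.3 replicate 1 or Sle1.3 replicate 2. Herc6, the mouse ligase for ISG15, differed by 0.47 (SE 0.17, adjusted p = 0.0645) and passed with the replicate number as a block (adjusted p = 0.0354). Isg20, an exonuclease of RNA, did the same (0.56, SE 0.21, adjusted p = 0.0734, and 0.0267 with the block).

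The 3 regulators lay below 0, and none passed. Irf7, the factor that amplifies interferon alpha transcription, was at 7.83 and 8.05 in WT, 7.95, 7.72 and 7.69 in Sle1.3, and 7.91, 6.95 and 6.86 in haplodeficient mice. WT and Sle1.3 overlapped, with a difference of -0.0314 (SE 0.25, adjusted p = 0.939) that turned to 0.17 under quantile normalization. Irf9 (-0.32, SE 0.15, adjusted p = 0.137) and Stat2 (-0.36, SE 0.17, adjusted p = 0.155), which pair in ISGF3, are the other two.

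Cxcl10, a chemokine that attracts CXCR3-bearing lymphocytes and is also induced by interferon gamma, fell from WT to Sle1.3. It was at 9.65 and 9.29 in WT, 8.98, 8.96 and 8.74 in Sle1.3, and 8.36, 8.35 and 9.05 in haplodeficient mice. Both WT arrays lay above all others. The difference between Sle1.3 and WT was -0.65 (SE 0.21, adjusted p = 0.0416), and it was not called in the first array set (adjusted p = 0.0632), under quantile normalization, or without either WT array, Sle1.3 replicate 1 or either array of the second set.

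Of all 7 members called in this comparison, 4 were called in the first array set alone, 1 without the array-set term and 0 with labelled sex. With labelled sex in place of the array set, 9 of all 35 tested members had an unadjusted p under 0.05. The share of all tested genes at that level was not counted for this fit. Without WT replicate 1 the calls were Oas1a and Dhx58, and without Sle1.3 replicate 1 Oas1a alone. Quantile normalization gave 10 higher and 0 lower, and over all tested genes it gave 945 higher and 1300 lower in place of 1115 and 2470.

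**Figure D2:**
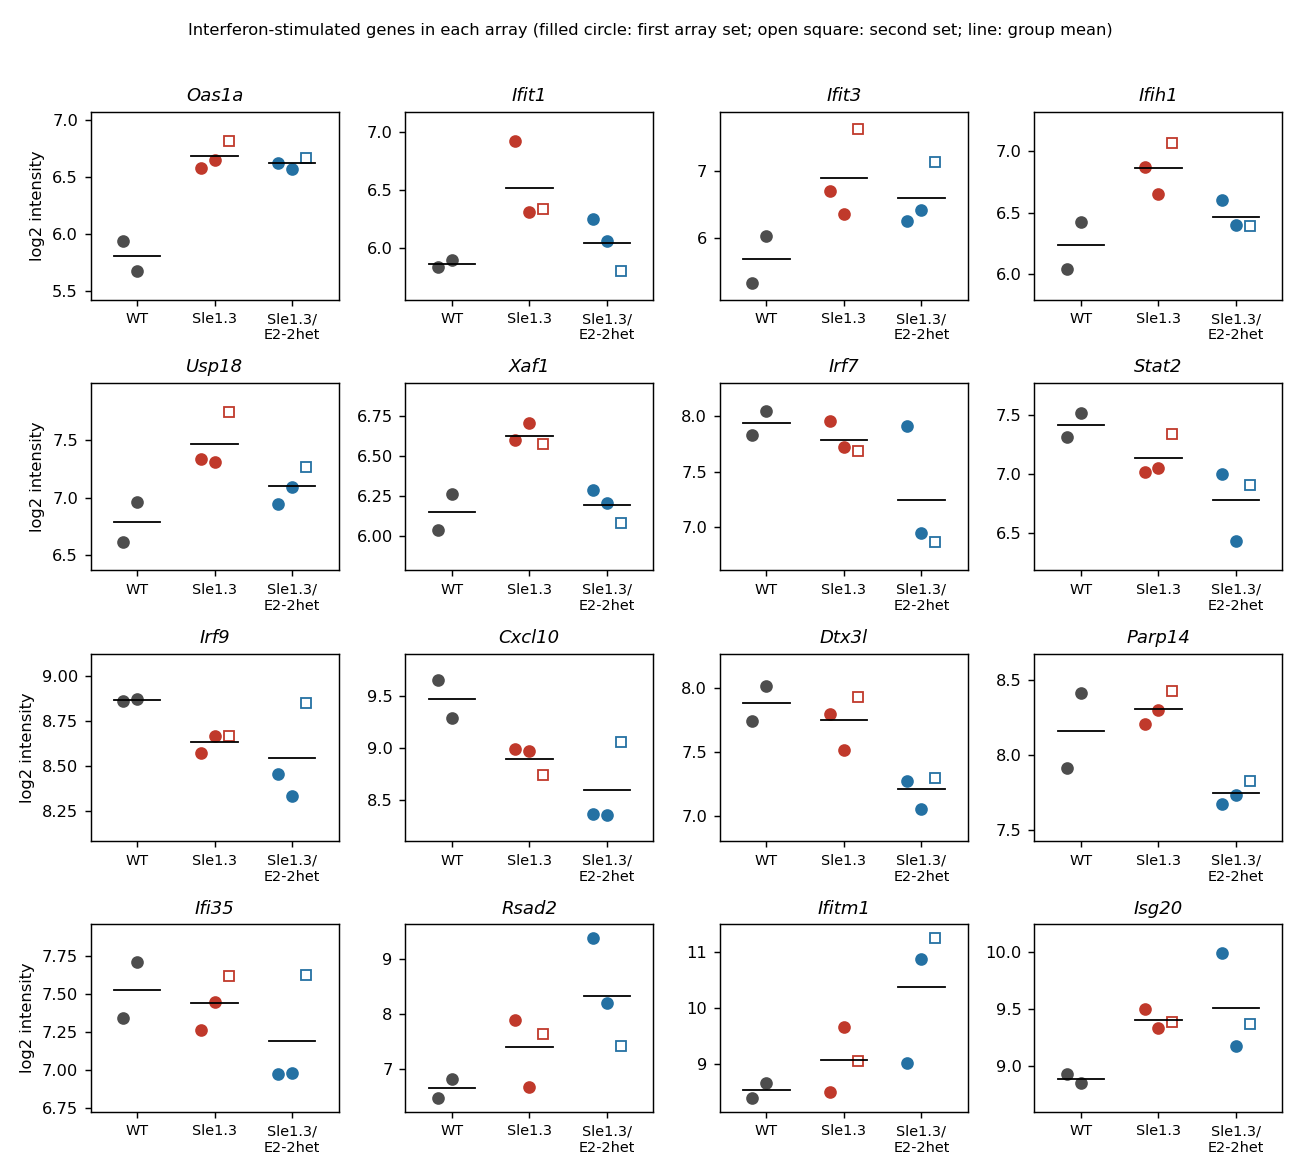
Log2 intensity of 16 members in each array, by genotype. Filled circles are arrays of the first set, open squares arrays of the second set and black lines group means, and each panel has its own vertical range. Oas1a is above both WT arrays in all 6 other arrays, and Parp14 is lower in all 3 Sle1.3/E2-2het than in all 3 Sle1.3 arrays.

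Haplodeficient mice were set against Sle1.3 mice for the loss of 1 E2-2 copy. Most members were lower in them, but no single member passed the planned test. In limma 0 of 35 members had an adjusted p under 0.05, beside 0.615% of all tested genes. At an unadjusted p under 0.05, 11 were lower (31.4%, against 6.92% of all tested genes) and 3 higher (8.57%, against 3.31%). The median difference was -0.23 over the members and 0.0017 over all tested genes, and 7 of 35 members lay above 0, against 50.5% of all tested genes. Set against the same-numbered Sle1.3 mouse, 18 members were lower in 3 of 3 haplodeficient mice (51.4%, against 19.3% of all tested genes). Ifitm1 alone was higher in 3 of 3 (2.86%, against 16.2%). These pairs were taken from correlations in these same arrays and not from the labels, so the counts are descriptive. The pair of replicates 3 is also the second array set. The replicate block in this comparison rests on the same pairs. The groups did not overlap for 9 lower members (25.7%, against 4.33%) and for 0 higher members (0%, against 3.04%). In the first array set 0 members passed by adjusted p in limma, beside 21 genes higher and 58 lower of all tested. The member median was -0.20. At an unadjusted p under 0.05 there were 9 members, and the share of all tested genes at that level was not counted for this fit. In the first array set the haplodeficient mice are male and the Sle1.3 mice female by Xist.

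The lower members included the pair of neighbours Dtx3l and Parp14 on chromosome 16. Dtx3l, a ubiquitin ligase that works with PARP9, was at 7.74 and 8.02 in WT, 7.80, 7.52 and 7.93 in Sle1.3, and 7.27, 7.05 and 7.30 in haplodeficient mice. Parp14, an ADP-ribosyltransferase, was at 7.91 and 8.41 in WT, 8.20, 8.30 and 8.43 in Sle1.3, and 7.67, 7.73 and 7.83 in haplodeficient mice. The groups did not overlap: for both genes every haplodeficient array lay below every other array. The differences from Sle1.3 were -0.54 (SE 0.13) for Dtx3l and -0.56 (SE 0.14) for Parp14, each with adjusted p = 0.107. With the replicate number as a block, Parp14 passed (adjusted p = 0.0410) and Dtx3l did not (adjusted p = 0.0618). In the first array set they differed by -0.50 (adjusted p = 0.338) for Dtx3l and -0.55 (adjusted p = 0.306) for Parp14. Parp9, which lies beside Dtx3l, differed by -0.22 (SE 0.13, adjusted p = 0.586).

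All 6 tested enzymes of ISG15, ubiquitin and ADP-ribose lay below 0 in this comparison, as did all 6 nucleic acid sensors and all 3 regulators, and none passed. Xaf1 (-0.44, SE 0.12, adjusted p = 0.146) and Ifit1 (-0.48, SE 0.15, adjusted p = 0.243) had small unadjusted p, and in both the 3 haplodeficient values listed above lay below the 3 Sle1.3 values. In the first array set Xaf1 differed by -0.41 (adjusted p = 0.386) and Ifit1 by -0.46 (adjusted p = 0.437). Irf7 differed by -0.55 (SE 0.21, adjusted p = 0.367, and -0.41 with adjusted p = 0.572 in the first array set), with haplodeficient replicate 1 within the range of Sle1.3 and replicates 2 and 3 below it. Without replicate 1 the difference of Irf7 was -0.86 and without replicate 2 it was -0.31. Oas1a differed by -0.06 (SE 0.12, adjusted p = 0.908), so its level in haplodeficient mice was not shown to differ from that in Sle1.3.

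The membrane protein genes Ifitm1 and Ifitm3 and the antiviral enzyme gene Rsad2 pointed the other way. Ifitm1 was at 8.41 and 8.67 in WT, 8.51, 9.67 and 9.05 in Sle1.3, and 9.02, 10.88 and 11.25 in haplodeficient mice. Haplodeficient replicates 2 and 3 lay above all other arrays, and replicate 1 lay within the range of Sle1.3. The difference from Sle1.3 was 1.31 (SE 0.43, adjusted p = 0.258, and 0.0351 with the replicate number as a block). It was 0.86 within the first array set (adjusted p = 0.534) and 2.20 within the second, and 1.96 in the planned fit without haplodeficient replicate 1. A second Ifitm1 probe set gave 7.54, 8.99 and 7.90 in Sle1.3 and 8.07, 10.54 and 10.85 in haplodeficient mice, the same order of arrays within each group. Ifitm3, its neighbour on chromosome 7, differed by 0.55 (SE 0.21, adjusted p = 0.357, and 0.51 with adjusted p = 0.505 in the first array set). Members of this family have similar sequences, and probes may be shared among them.

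Rsad2 encodes viperin, which makes a chain-terminating nucleotide. It was at 6.47 and 6.82 in WT, 7.89, 6.68 and 7.64 in Sle1.3, and 9.38, 8.20 and 7.41 in haplodeficient mice. Haplodeficient replicates 1 and 2 were highest and replicate 3 was within the range of Sle1.3. Its difference between haplodeficient and Sle1.3 was 0.93 (SE 0.39, adjusted p = 0.427), with 1.51 within the first array set (adjusted p = 0.182) and -0.23 within the second. Without Sle1.3 replicate 2 or haplodeficient replicate 1 it was 0.42. Cmpk2, a nucleotide kinase gene next to Rsad2 on chromosome 12, was at 6.01, 5.47 and 5.73 in Sle1.3 and 5.99, 5.40 and 5.65 in haplodeficient mice and differed by -0.06 (SE 0.17).

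In this comparison 2 of 7 red pulp macrophage and 2 of 5 erythroid markers were higher and 2 of 6 monocyte markers lower. Over all tested genes 0.154% were higher and 0.461% lower. Summed intensities in Sle1.3 and haplodeficient arrays were 1816 to 2475 and 2189 to 3614 for macrophages. They were 240 to 523 and 937 to 2188 for erythroid cells, and 1127 to 2056 and 860 to 1100 for monocytes. The lower monocyte markers were Fcgr4 (-2.33) and Cd300e (-1.12). Fcgr4 was the brightest monocyte marker in Sle1.3 and weighed most in the Sle1.3 sums. It was at 9.41, 8.68 and 9.68 in Sle1.3 and 7.34, 6.68 and 6.75 in haplodeficient mice. The other monocyte markers did not pass and went both ways: Cx3cr1 (-0.27), Ace (-0.16), Ccr2 (0.43) and Csf1r (0.31). Natural killer markers had a median difference of 0.84 and summed to 979 to 1179 in Sle1.3 and 1257 to 1903 in haplodeficient arrays, without overlap. Of these, 0 of 7 passed the planned test and 5 of 7 were higher with the replicate block. The block also called 3 of 7 red pulp macrophage and 3 of 5 erythroid markers higher, and 2 of 6 monocyte, 2 of 9 neutrophil and 1 of 5 T cell markers lower. The part of these markers in the members' differences was not tested. The replicate block called 2 members, Ifitm1 and Parp14, beside 0.548% of all tested genes higher and 1.20% lower. In the planned fit, leaving out Sle1.3 replicate 2 called Ifit1 and Ifitm1, and leaving out haplodeficient replicate 1 called Irf7 and Ifitm1.

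**Figure D3:**
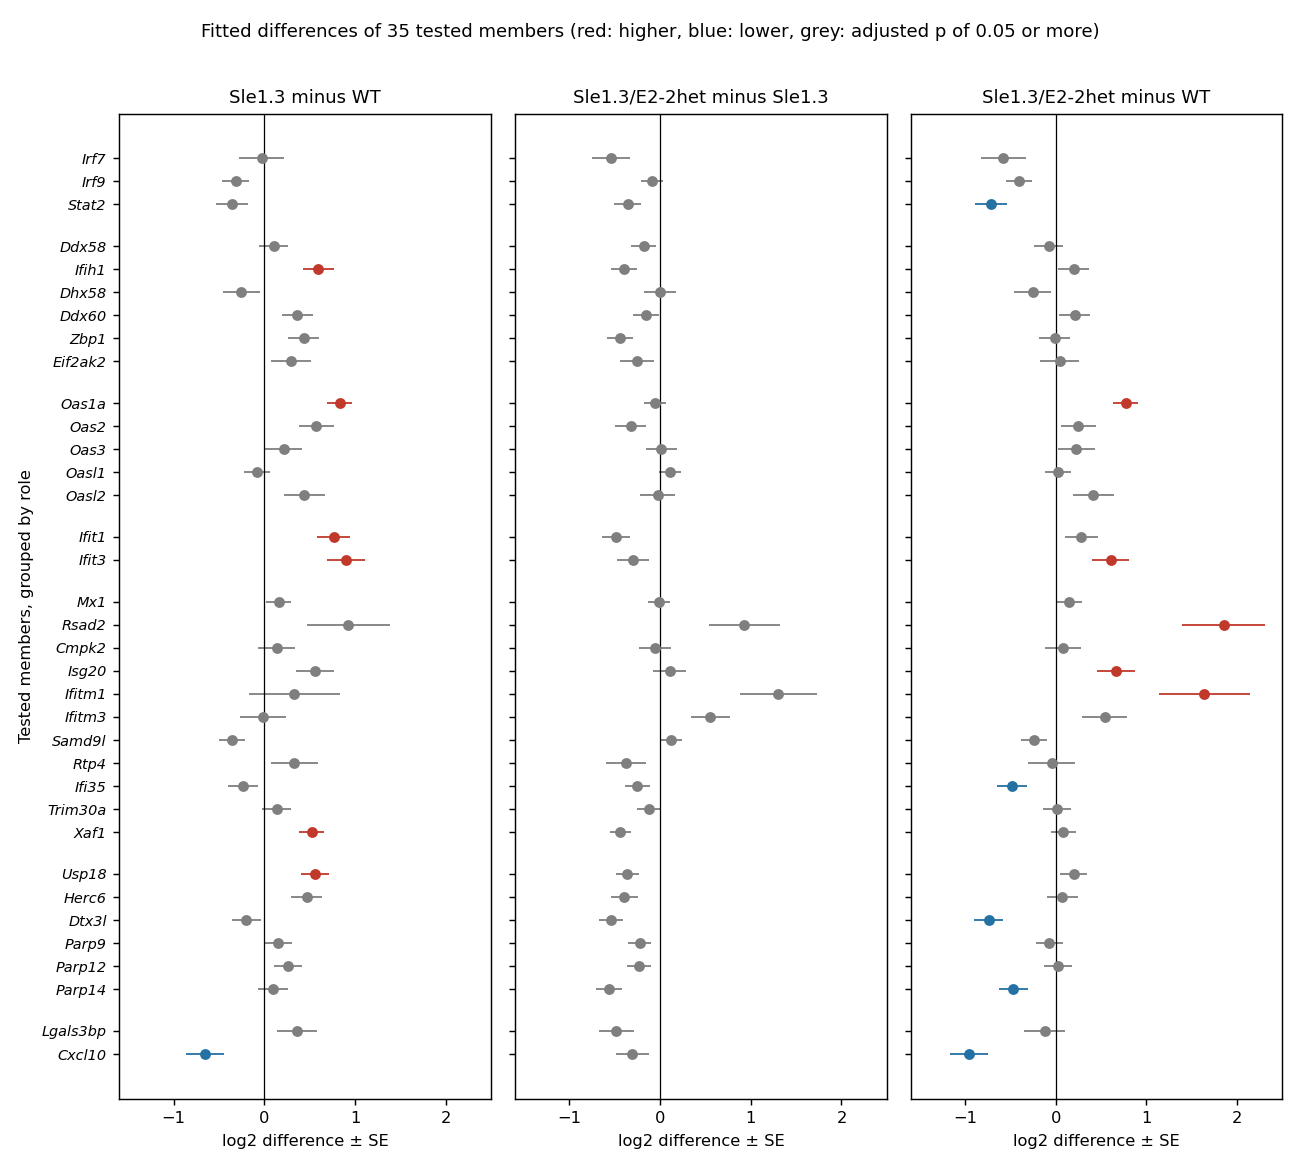
Fitted log2 difference of each tested member, with its standard error, in the 3 comparisons, grouped by role from regulators at the top to secreted products at the bottom. Coloured points passed an adjusted p of 0.05, which 7, 0 and 10 members did. In the middle panel 28 of 35 points lie below 0.

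The comparison of haplodeficient with WT mice shares its arrays with both comparisons above, so the values are given side by side and not as further support. Against WT, 5 members were higher (Oas1a, Ifit3, Rsad2, Ifitm1 and Isg20) and 5 lower (Cxcl10, Dtx3l, Stat2, Ifi35 and Parp14). These are 14.3% and 14.3% of members, against 10.7% and 23.4% of all tested genes (34.1% in either direction). At an unadjusted p under 0.05, 5 members were higher, against 15.6% of all tested genes, and 7 lower, against 31.1%. The median difference was 0.04 over members, which median centring turned to -0.04, and -0.09 over all tested genes. Above 0 lay 21 of 35 members, against 43.0% of all tested genes. All 3 haplodeficient arrays lay above both WT arrays for 7 members, against 25.9% of all tested genes, and below both for 6 (17.1%, against 23.2%). Median centring gave 3 higher and 6 lower, quantile normalization 4 and 2, and the first array set alone 5 and 5. All 9 neutrophil, 7 of 7 red pulp macrophage and 4 of 5 erythroid markers were higher, and 3 of 7 plasmacytoid dendritic cell, 3 of 6 B cell, 2 of 5 T cell and 2 of 7 natural killer markers lower, in haplodeficient than in WT mice. Of the other natural killer and monocyte markers, 1 each was higher. Their part in the members' differences was not tested. Over all tested genes median centring gave 1177 higher and 4335 lower in place of 1599 and 3493.

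Among the higher members, Oas1a differed by 0.77 (SE 0.14, adjusted p = 0.00312, and by 0.83 in Sle1.3 versus WT) and Ifit3 by 0.60 (SE 0.21, adjusted p = 0.0426, and 0.90). Rsad2 differed by 1.85 (SE 0.46, adjusted p = 0.0110) and Ifitm1 by 1.64 (SE 0.50, adjusted p = 0.0270), beside 0.93 and 0.33 in Sle1.3 versus WT, neither of which passed. Isg20 was at 8.93 and 8.85 in WT, 9.50, 9.33 and 9.38 in Sle1.3, and 9.99, 9.17 and 9.36 in haplodeficient mice. All Sle1.3 and haplodeficient values of Isg20 lay above WT, and it differed by 0.66 (SE 0.21, adjusted p = 0.0308). In the first array set the WT and haplodeficient mice are all male by label and by Xist. There Oas1a differed by 0.79 (limma adjusted p = 0.00510), Ifit3 by 0.65 (0.0437) and Rsad2 by 2.14 (0.00416). Ifitm1 differed by 1.41 (0.0477) and Isg20 by 0.70 (0.0392) in the same fit.

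Among the lower members, Cxcl10 differed by -0.96 (SE 0.21, adjusted p = 0.00674) and Dtx3l by -0.74 (SE 0.16, adjusted p = 0.00596). Stat2 was at 7.31 and 7.52 in WT, 7.02, 7.05 and 7.34 in Sle1.3, and 6.998, 6.44 and 6.90 in haplodeficient mice. It differed by -0.72 (SE 0.17, adjusted p = 0.0106), with all haplodeficient arrays below both other groups. Irf9 was at 8.86 and 8.87 in WT, 8.57, 8.67 and 8.66 in Sle1.3, and 8.45, 8.33 and 8.85 in haplodeficient mice. All 6 arrays lay below WT, and Irf9 (-0.41, SE 0.15, adjusted p = 0.0513) passed in the first array set (adjusted p = 0.0313) and with the replicate block (adjusted p = 0.0439). Irf7 (-0.58, SE 0.25, adjusted p = 0.0875) and Ifitm3 (0.54, SE 0.25, adjusted p = 0.109) passed with the block (adjusted p = 0.0487 and 0.0435). Ifi35, which encodes a leucine-zipper protein, was at 7.34 and 7.71 in WT, 7.26, 7.45 and 7.62 in Sle1.3, and 6.97, 6.98 and 7.62 in haplodeficient mice. Its second-set value lay within the WT range, and it differed by -0.49 (SE 0.16, adjusted p = 0.0394). Parp14 differed by -0.47 (SE 0.16, adjusted p = 0.0454) and was not called in the first array set (adjusted p = 0.0718). In that set Cxcl10 differed by -1.11 (limma adjusted p = 0.00182) and Dtx3l by -0.72 (0.0117). Stat2 differed there by -0.70 (0.0198) and Ifi35 by -0.55 (0.0296).

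Oas1a and Cxcl10 stayed called under all 8 omissions of 1 array. Without WT replicate 2 the calls of Dtx3l, Ifi35, Ifitm1, Isg20, Parp14, Rsad2 and Stat2 were lost, and without WT replicate 1 those of Ifit3, Ifitm1, Isg20 and Rsad2. Without haplodeficient replicate 2 Ifi35, Ifit3, Ifitm1, Parp14 and Stat2 did not pass, and without replicate 1 Ifi35, Ifit3, Isg20 and Parp14. Omitting Sle1.3 replicate 1 lost Ifi35, Ifit3 and Parp14, and omitting either second-set array lost Parp14 (and added Irf9 to those called). Some differences moved by over 1.5 times. Ifit3 was at 0.26 without WT replicate 1 and 0.95 without WT replicate 2, and Parp14 at -0.72 and -0.21 without the same arrays. Ifi35 was at -0.30 without WT replicate 2. Without haplodeficient replicate 1, Isg20 was at 0.35, Rsad2 at 1.22 and Ifitm1 at 2.46.

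**Figure D4:**
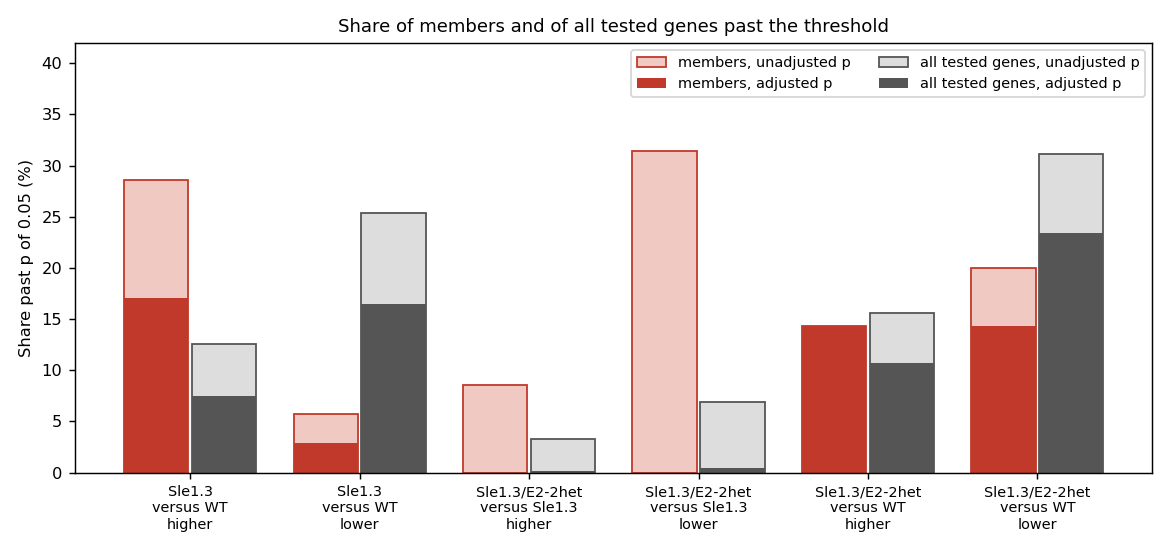
Share of the 35 tested members (red) and of all 14953 tested genes (grey) past p of 0.05 in each comparison and direction. Solid bars use the adjusted p and pale bars the unadjusted p. In Sle1.3 versus WT 17.1% of members and 7.46% of all tested genes were higher by the adjusted p.

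Members differed in how far they followed the array set. In both Sle1.3 and haplodeficient groups 23 members were higher in the second set than in the mean of the first (65.7%, against 71.1% of all tested genes) and 7 lower, against 9.94% of all tested genes. Oasl1, an oligoadenylate synthetase-like gene, was at 7.50 and 7.76 in the second set and between 6.68 and 6.92 in the first, WT included. Mx2, a GTPase gene below the level tested, was at 4.76 and 4.69 in the second set and between 3.56 and 4.02 in the first. Among the 2 members too dim to be tested, the other was Ifit2, at 4.44 and 4.90 in WT, 4.73, 5.18 and 4.93 in Sle1.3, and 4.65, 5.05 and 4.99 in haplodeficient mice. Mx1, the other Mx gene, lay between 5.04 and 5.44 in all 8 arrays. Isg15 had only a probe set assigned jointly with Gm9706, and Ifi44 had none listed, so neither was analysed as a member.

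Samd9l, which restrains cell growth and viruses, was the member with the lowest difference after Cxcl10 and Stat2 between Sle1.3 and WT, at -0.36 (SE 0.14, adjusted p = 0.0893), with WT at 8.26 and 8.45 and Sle1.3 at 7.91, 7.98 and 8.25. Eif2ak2, the kinase that halts translation on double-stranded RNA, Ddx60, Rtp4, Trim30a, Parp9, Parp12 and the secreted glycoprotein gene Lgals3bp differed by 0.13 to 0.36 between Sle1.3 and WT, none past the test. Between haplodeficient and Sle1.3 these 7 differed by -0.48 to -0.12.

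The rest of the pathway was read from a list of 22 genes of interferon production, reception, signalling and restraint, of which 15 were tested. Between Sle1.3 and WT 1 was higher and 6 lower, where 7.46% of all tested genes were higher and 16.5% lower. Between haplodeficient and WT 2 were higher and 7 lower, where 10.7% of all tested genes were higher and 23.4% lower. The receptor chain gene Ifnar1 was at 9.56 and 9.62 in WT, 8.55, 8.82 and 8.36 in Sle1.3, and 8.73, 8.72 and 8.76 in haplodeficient mice. It fell by 0.97 on the log2 scale between WT and Sle1.3 (SE 0.15, adjusted p = 0.00180). Irf5 and Irf3, factors that induce interferon genes, differed by -1.11 (SE 0.15, adjusted p = 0.000995) and -0.75 (SE 0.15, adjusted p = 0.00537), and Tlr9, a DNA receptor of plasmacytoid dendritic cells and B cells, by -1.07 (SE 0.16, adjusted p = 0.00138). The higher gene was Ifna2, one of the many near-identical interferon alpha genes (0.93, SE 0.22, adjusted p = 0.0112). Its WT mean of 4.93 lay below the filter of 5.01. It entered the test only through its means of 5.83 in Sle1.3 and 6.16 in haplodeficient mice, so this call is not independent of the filter. Ifnb1 was too dim to be tested. Between haplodeficient and Sle1.3, 0 of the 15 passed in limma, and those with the smallest p were Socs3, a feedback inhibitor of cytokine receptors (-0.28, SE 0.14, adjusted p = 0.533), and Ifna2 (0.33, SE 0.19, adjusted p = 0.581).

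A further list of 32 interferon-stimulated genes outside the members, several also induced by interferon gamma, had 28 tested genes. Their median between Sle1.3 and WT was -0.19, beside 0.26 over the members and -0.06 over all tested genes. Past the test were 2 higher and 6 lower, where 7.46% of all tested genes were higher and 16.5% lower. Of the 2 higher, Phf11d had a WT mean of 4.81, below the filter of 5.01, and entered the test only through the other groups. Trim25, the ligase that helps activate RIG-I, was at 9.99 and 9.76 in WT, 8.28, 8.41 and 8.18 in Sle1.3, and 8.56, 8.20 and 9.001 in haplodeficient mice, a difference of -1.67 (SE 0.20, adjusted p = 0.000634). Between haplodeficient and Sle1.3 the median was -0.17, beside 0.0017 over all tested genes. There 1 gene passed, and 3 with the replicate block, all lower (0.461% and 1.20% of all tested genes were lower). The gene past the planned test was Tap1, a peptide transporter for MHC class I, at 8.96, 9.11 and 9.27 in Sle1.3 and 8.30, 8.05 and 8.90 in haplodeficient mice (-0.70, SE 0.14, adjusted p = 0.0469). Against WT 3 of these genes were higher and 10 lower in haplodeficient mice, where 10.7% of all tested genes were higher and 23.4% lower.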

How the data were processed

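Each deposited value is a probe set intensity on a linear scale. RMA and Affymetrix Expression Console were used, per the submitters' processing notes, which give neither versions nor roles, and no annotation build is given in the sources used here. The spread of values followed genotype, with an interquartile range of 2.77 and 2.97 log2 units in WT and 2.41 to 2.57 in the other arrays. The deposited probe set values thus share no common distribution, and earlier steps cannot be read from this. Between Sle1.3 and WT the median over all genes was 0.04 unfiltered, -0.06 with the planned filter and -0.20 with a filter at the 50th percentile. Brighter genes thus leaned lower, and the shares over all tested genes set beside the members include this shift. The number of arrays limits the precision, and no label says that mice came from separate litters or were handled separately, so p-values measure the spread between these samples.

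Here log2 was taken of the deposited intensities. Of 35556 probe sets, 21789 were assigned to 1 gene, 1621 to several and 12146 to none, by the platform annotation. The brightest single-gene probe set stood for each gene, and a gene was tested where its mean exceeded the 25th percentile (5.01). R 4.3.3 and limma 3.58.1 gave the differences (two-sided, from lmFit followed by eBayes) on all 8 arrays, with group and array set as terms and 4 residual degrees of freedom. Adjusted p follow Benjamini and Hochberg over all 14953 genes. The sets were told apart by a lowest linear intensity above or below 8. With the set as a term, the difference between Sle1.3 and WT also uses values of the haplodeficient (Sle1.3/E2-2het) mice. The fit was tested on simulated data.

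Labelled sex was left out of the fit because it goes against the arrays in 1 mouse. Members, lists, the array-set term and tests were chosen with earlier results of these data known. Named members were Irf7, Irf9, Stat2, those past the threshold in any comparison, and in each comparison the 3 with the smallest p and the 2 with the largest absolute difference. Genes of other lists were those past the threshold, up to 4 per comparison, or the 2 with the smallest p. Samd9l, Oasl1, Mx2, Cmpk2 and Parp9 were picked after their values were seen. Oas2, Herc6, Ifitm3, Zbp1, Dhx58, Ddx58, Mx1 and Ifit2 were also described outside the rule for named members.

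Same-numbered Sle1.3 and haplodeficient arrays deviated together from their group means (correlations across genes of 0.573, 0.369 and 0.618), so the numbers were taken to pair these mice. The pairing comes from the data and not from the labels, and the pair with 0.618 is also the second array set. The 2 WT arrays correlated with their numbers at -0.0768 and 0.214 in Sle1.3 and at 0.151 and 0.160 in haplodeficient mice, too few pairs to settle a pairing. Alternatives were other terms, scalings, filters and probe set rules, an intensity trend, and leaving out each array.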

Additional observations from a re-analysis of the deposited data

How the results depend on the processing

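Between Sle1.3 and WT the 7 calls among members became 1 without the array-set term, 0 with labelled sex in its place (9 at an unadjusted p under 0.05) and 4 in the first array set alone, and 10 with the replicate block, and they ranged from 1 to 10 when 1 array was left out. Between haplodeficient and Sle1.3 the 0 calls became 2 with the replicate block and ranged from 0 to 2 over the omissions. Between haplodeficient and WT the 10 calls became 2 without the array-set term, 2 with labelled sex, 6 under quantile normalization and 13 with the replicate block, and ranged from 3 to 13. Leaving out either second-set array gives the first-set fit for these differences, by construction. Over all tested genes, Sle1.3 versus WT gave 1115 higher and 2470 lower, 398 and 481 without the array-set term, 79 and 120 with labelled sex, 772 and 1595 in the first array set, and 945 and 1300 under quantile normalization. Haplodeficient versus WT gave 1599 and 3493, then 517 and 559, 256 and 236, 1581 and 3505, and 1047 and 1745 in the same order. Haplodeficient versus Sle1.3 gave 23 and 69, then 0 and 2 without the array-set term and 0 and 0 with labelled sex in limma. The replicate block gave 82 and 180 there. With labelled sex 5 members had an unadjusted p under 0.05 in this comparison. The share of all tested genes at an unadjusted p was not counted under any alternative. Over the omissions the higher genes ranged from 393 to 1144 for Sle1.3 versus WT, from 6 to 49 for haplodeficient versus Sle1.3 and from 532 to 1829 for haplodeficient versus WT. The difference of Irf7 between Sle1.3 and WT reversed to 0.17 under quantile normalization, and ranged from -0.14 to 0.10 over the omissions. Of 897 values of named genes under alternatives, 750 kept direction and side of the threshold, 127 kept direction and lost the call, 16 kept direction and gained it and 4 reversed, all of them Irf7. An omission that leaves 1 WT array assumes that it varies like the other groups. The table has no background level, so dim members such as Mx2 and Ifit2 have no detection call.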

Other observations

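Probe sets shared by several genes entered no test and are given as values. The probe set assigned jointly to Isg15 and its relative Gm9706 was at 5.70 and 5.87 in WT, 5.43, 5.67 and 5.13 in Sle1.3, and 5.65, 5.83 and 5.14 in haplodeficient mice, lowest in both arrays of the second set. The probe set of Oas1a together with Oas1g, a close relative, was at 6.28 and 6.54 in WT, 7.28, 6.96 and 7.52 in Sle1.3, and 6.83, 6.25 and 6.83 in haplodeficient mice. All 3 Sle1.3 values were above all others there, while the probe set of Oas1a alone was as high in haplodeficient as in Sle1.3 mice within 0.06 on average. Of 3 probe sets that each cover several interferon alpha genes, 1 was at 5.57 and 5.34 in WT, 6.42, 6.21 and 6.47 in Sle1.3, and 6.46, 6.45 and 6.54 in haplodeficient mice. In the other 2 all Sle1.3 and haplodeficient arrays likewise lay above both WT arrays, with the highest values in the second array set.

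Among the interferon-stimulated genes outside the members, Ifitm2, a further gene of the Ifitm family, was at 10.40, 11.25 and 10.33 in Sle1.3 and at 10.53, 11.84 and 12.38 in haplodeficient mice. Its order of arrays within the haplodeficient group was that of Ifitm1. It was chosen after its values were seen, and shared probes were not tested.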
